A study of Mus musculus with 6 samples.

Results

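The YAP, TAZ and TEAD pathway was followed through 10 genes in bulk RNA-seq counts of mouse tail tendon. The genes were chosen by name, with earlier results of these data known. They comprised the coactivator genes *Yap1* and *Wwtr1* (the gene of TAZ) and the DNA-binding partner genes *Tead1*, *Tead2*, *Tead3* and *Tead4*. The kinase genes *Lats1* and *Lats2*, the junction scaffold gene *Amotl2* and the target gene *Ankrd1* made up the rest. All 10 had a row among the 44788 gene symbols of the count table. Tendons of 3 WT and 3 *Mkx*-/- libraries were compared, all of the C57BL/6 strain and, by their labels, from mice aged 3 weeks, whereas the text of the study gives another age. *Mkx* encodes Mohawk, a homeobox transcription factor of tendon, the *Mkx*-/- mice were a line obtained from another laboratory, and the genotype label names no other allele, agent or treatment in either group. The labels do not say whether the 3 libraries of a genotype came from separate mice. The p-values below therefore set the difference between genotypes against the spread between these libraries, which may be partly technical. The smallest two-sided p of an exact permutation test with 3 against 3 libraries is 0.1, and the p-values therefore come from edgeR's quasi-likelihood test, which shares the spread across genes.

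YAP and TAZ are transcriptional coactivators without a DNA-binding domain, and they reach DNA mainly through the TEAD proteins. In the Hippo cascade the kinases MST1 and MST2 activate LATS1 and LATS2, which phosphorylate YAP and TAZ and keep them out of the nucleus, and angiomotin family proteins hold them at cell junctions. In connective tissue the pathway is known for its response to matrix stiffness and mechanical load, a response set largely by phosphorylation and localization of the proteins, which RNA counts do not measure.

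Some properties of the libraries bear on every value below. Library sizes ran from 10835070 to 14160301 counts, and levels are given as normalized CPM, counts scaled to a common library size with edgeR's TMM factors. *Mkx* itself had 1381 to 1825 counts in the WT libraries and 491 to 620 in the *Mkx*-/- libraries, a log2 fold change of -1.60 (SE 0.16, adjusted p = 0.00183, edgeR's quasi-likelihood test). WT replicate 3 held 301 counts of the Y-linked gene *Ddx3y* and 1 count of *Xist*, while the other 5 libraries held 0 counts of *Ddx3y* and 1289 to 1866 of *Xist*, so WT replicate 3 stood apart in sex. It therefore cannot come from the same mouse as the other WT libraries. The 20 skeletal muscle markers summed to 110 to 497 CPM in WT and 677 to 3513 CPM in *Mkx*-/- libraries, and 19 of the 20 were higher in *Mkx*-/-. The 12 endothelial markers summed to 75.9 to 96.3 CPM in WT and 139 to 193 CPM in *Mkx*-/- libraries, with 10 higher, and the 10 macrophage and leukocyte markers summed to 551 to 606 CPM in WT and 373 to 466 CPM in *Mkx*-/- libraries, with all 10 lower. The 7 smooth muscle and pericyte markers summed to 108 to 125 CPM in WT, to 153 and 119 CPM in *Mkx*-/- replicates 1 and 2 and to 393 CPM in *Mkx*-/- replicate 3. *Des* is in this list and in the skeletal muscle list. It had 0.883 to 9.14 CPM in WT and 52.9, 26.9 and 15.9 CPM in *Mkx*-/- replicates 1, 2 and 3. The 4 keratinocyte markers summed to 0.788 to 6.77 CPM in WT and 9.77 to 13.2 CPM in *Mkx*-/- libraries, and the 6 tendon markers to 376500 to 519900 CPM and 240000 to 334600 CPM. Most of the tendon sum is *Col1a1* and *Col1a2*, with WT means of 185300 and 257900 CPM. Of the 6 tendon markers 2 were higher in *Mkx*-/- and 4 lower, and *Thbs4* rose (log2 fold change 1.27, adjusted p = 0.0118, edgeR's quasi-likelihood test). Of all these markers, *Mb*, *Krt1* and *Krt5* were at 0 counts in at least 1 library, and the tendon markers *Scx* and *Tnmd* were present in every library. In bulk tissue, fewer cells of a type and less RNA per cell cannot be told apart, and the part of these cell types in the results below was not tested beyond the values given.

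**Figure D1:**
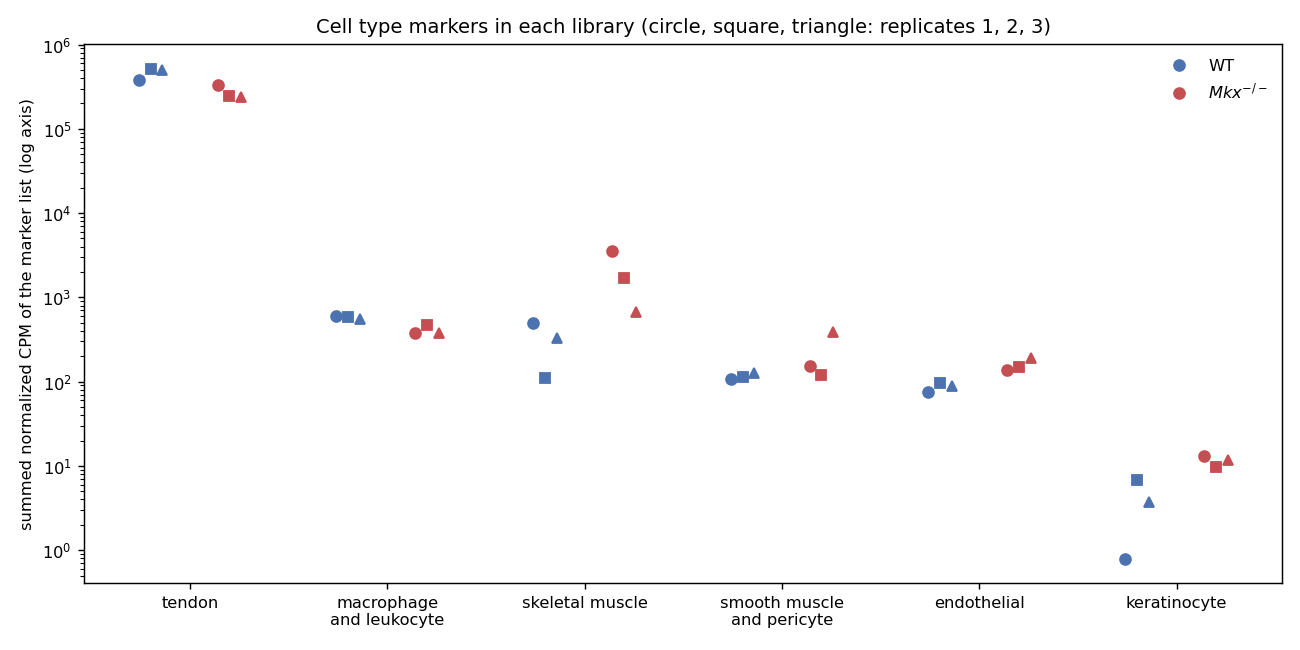
Summed normalized CPM of 6 cell type marker lists in each library, on a log axis, with blue points for WT, red points for *Mkx*-/- and circle, square and triangle for replicates 1, 2 and 3. The skeletal muscle sums lie at 110 to 497 CPM in WT and 677 to 3513 CPM in *Mkx*-/- libraries, and *Mkx*-/- replicate 3 holds the highest smooth muscle and pericyte sum, 393 CPM.

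TEAD proteins bind the letters GGAATG, which read CATTCC on the other strand. These letters were searched on both strands in the 250 bases before each start in RefSeq's promoters of GRCm38.p6, a build that was used for sequence only, since the counts rest on mm9. They were found in 12.6% of 32851 promoters and, counted by gene, in 14.4% of 27025 genes. Of the 10 pathway genes 8 had entries, with 12 promoters, and 7 of these promoters (58.3%) held the letters, in the genes *Yap1*, *Wwtr1*, *Tead3*, *Amotl2* and *Ankrd1*. The windows of *Tead2*, *Lats1* and *Lats2* did not hold them, and *Tead1* and *Tead4* had no entry. *Wwtr1* and *Tead3* each held the letters in more than 1 promoter, and a further *Tead3* promoter did not hold them. The sequences below come from a single promoter of each gene. Of the 19 listed YAP/TAZ target genes 12 had entries, and 4 of the 12 held the letters (*Cyr61*, *Axl*, *Crim1* and *Ptpn14*). The whole windows of the established target genes *Ankrd1* and *Amotl2*, and the 60 bases around the match in *Yap1*, *Wwtr1* and *Tead3*, show where the letters sit, with the match in capitals and each sequence written 5′ to 3′ on the strand of the gene. They are *Ankrd1* on the minus strand at chr19:36119845-36120094 with matches beginning 210 and 123 bases before the start, *Amotl2* on the plus strand at chr9:102717554-102717803 (65 bases before), *Yap1* on the minus strand at chr9:8004705-8004764 (141 bases before), *Wwtr1* on the minus strand at chr3:57576014-57576073 (136 bases before) and *Tead3* on the minus strand at chr17:28350687-28350746 (123 and 114 bases before).
*Ankrd1*: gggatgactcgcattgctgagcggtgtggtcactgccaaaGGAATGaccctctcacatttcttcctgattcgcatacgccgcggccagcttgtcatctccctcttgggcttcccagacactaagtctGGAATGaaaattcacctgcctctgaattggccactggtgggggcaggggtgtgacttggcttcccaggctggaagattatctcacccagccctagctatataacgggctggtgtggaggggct
*Amotl2*: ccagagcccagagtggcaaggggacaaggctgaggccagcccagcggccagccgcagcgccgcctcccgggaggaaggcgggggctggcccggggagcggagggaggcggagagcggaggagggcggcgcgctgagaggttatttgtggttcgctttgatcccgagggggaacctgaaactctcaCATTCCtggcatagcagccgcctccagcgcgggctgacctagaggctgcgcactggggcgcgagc
*Yap1*: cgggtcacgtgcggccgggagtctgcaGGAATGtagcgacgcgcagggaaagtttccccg
*Wwtr1*: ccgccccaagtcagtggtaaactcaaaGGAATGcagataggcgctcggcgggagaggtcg
*Tead3*: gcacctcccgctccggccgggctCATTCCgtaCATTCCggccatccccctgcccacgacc
A match is a description of letters only, and no binding was measured in these samples.

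The coactivator genes did not pass the test, and their values lay in opposite directions. *Yap1*, at chr9:7931999-8004596 on the minus strand of mm9, had 101, 80.8 and 94.9 CPM in the WT libraries and 81.0, 82.8 and 82.1 CPM in the *Mkx*-/- libraries. The groups overlapped, because WT replicate 2 lay below all 3 *Mkx*-/- libraries. WT libraries averaged 92.2 ± 10.3 CPM and *Mkx*-/- libraries 82.0 ± 0.936 CPM (SD, n = 3 for both), a log2 fold change of -0.17 (SE 0.12, 95% interval -0.45 to 0.11, adjusted p = 0.461, edgeR's quasi-likelihood test). *Wwtr1*, at chr3:57259571-57379832 on the minus strand, had 98.6, 84.1 and 88.4 CPM in WT and 112, 117 and 112 CPM in *Mkx*-/- libraries. All 3 *Mkx*-/- libraries were above all 3 WT libraries. The means were 90.4 ± 7.46 CPM and 114 ± 2.99 CPM (SD, n = 3 each), with log2 fold change 0.33 (SE 0.11, 95% interval 0.066 to 0.59), with an unadjusted p of 0.0201 that became 0.135 after adjustment over all 14550 genes tested by edgeR. Within each library, the count of *Wwtr1* divided by that of *Yap1* does not depend on scaling, and it was 0.978, 1.04 and 0.932 in WT and 1.38, 1.41 and 1.36 in *Mkx*-/- libraries. The ratio was thus near 1 in every WT library and above 1.3 in every *Mkx*-/- library, with means of 0.984 ± 0.0545 and 1.39 ± 0.0261 (SD, n = 3 each), and no test was made of it. In the annotation *Yap1* is overlapped by an antisense transcript and *Wwtr1* by a pseudogene on the other strand, and how the authors counted strand is not given in the sources used here.

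**Figure D2:**
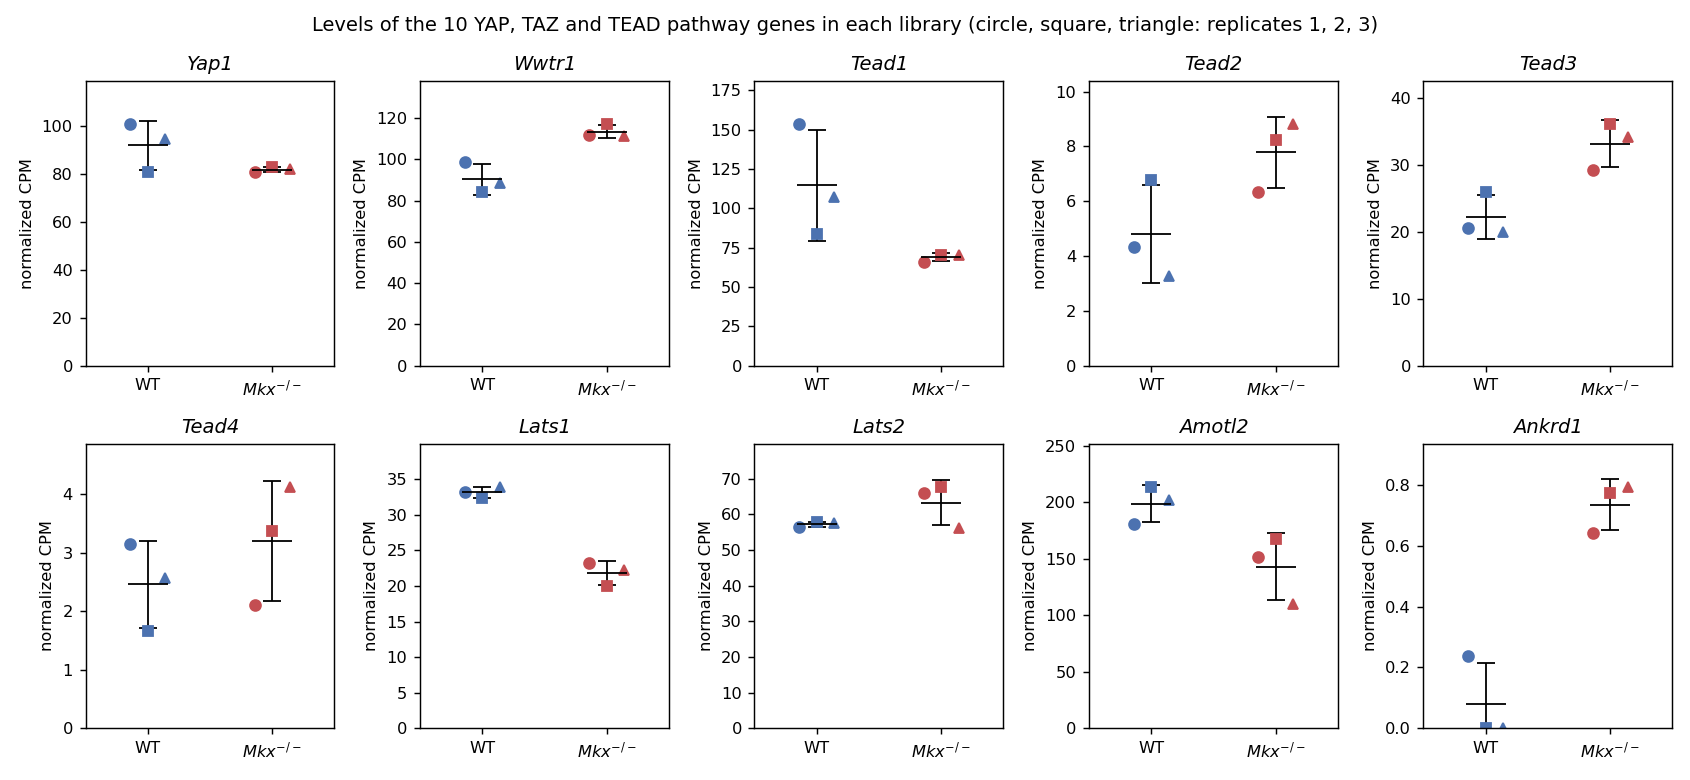
Normalized CPM of the 10 pathway genes in each library, with 1 panel and its own axis from 0 per gene, points for the 3 WT (blue) and 3 *Mkx*-/- (red) libraries, and black bars for mean and SD. The groups are apart for *Wwtr1*, *Tead3* and *Ankrd1*, higher in *Mkx*-/-, and for *Tead1*, *Lats1* and *Amotl2*, lower in *Mkx*-/-.

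Among the other genes that averaged 5 CPM or more, those whose log2 CPM ran most closely with *Yap1* over the 6 libraries were *Hcfc1* (Pearson r of 0.992), *Zfp507* (0.990) and *Map4k3* (0.989). For *Wwtr1* they were *Tspan14* (0.992), *Ino80c* (0.988) and *Riok3* (0.988). These are the highest of 10295 values over only 6 libraries of 2 genotypes, so they are a description of which profiles resemble each other. Since *Wwtr1* was higher in every *Mkx*-/- library, its nearest profiles were picked on values that differ by genotype. No test between genotypes is therefore read from these 6 genes.

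The TEAD genes encode the DNA-binding partners through which YAP and TAZ act. None of the 4 passed an adjusted p of 0.05 in edgeR's fit, and the most abundant pair had values in opposite directions. *Tead1*, at chr7:119822832-120050319 on the plus strand, had 153, 83.8 and 107 CPM in WT and 65.9, 70.3 and 70.6 CPM in *Mkx*-/- libraries. The *Mkx*-/- libraries lay close together and below all WT libraries, which were spread widely, with WT replicate 1 the highest as it was for *Yap1*. The means were 115 ± 35.4 CPM and 68.9 ± 2.63 CPM (SD, n = 3 each), with log2 fold change -0.74 (SE 0.21, adjusted p = 0.0793 by edgeR and 0.0141 by DESeq2). Without WT replicate 1 the log2 fold change was -0.47 (adjusted p = 0.0800, edgeR). *Tead3*, at chr17:28468616-28487750 on the minus strand, had 20.6, 26.0 and 20.03 CPM in WT and 29.3, 36.1 and 34.2 CPM in *Mkx*-/- libraries. Every *Mkx*-/- library was above every WT library. The means were 22.2 ± 3.29 CPM and 33.2 ± 3.50 CPM (SD, n = 3 each), with log2 fold change 0.58 (SE 0.15, adjusted p = 0.0617 by edgeR and 0.0329 by DESeq2). *Tead2*, at chr7:52471123-52489005 on the plus strand, had 4.33, 6.77 and 3.28 CPM in WT and 6.32, 8.22 and 8.80 CPM in *Mkx*-/- libraries. Its groups overlapped at WT replicate 2 and *Mkx*-/- replicate 1 (log2 fold change 0.71, SE 0.28, adjusted p = 0.176, edgeR's quasi-likelihood test). *Tead4*, at chr6:128174306-128250841 on the minus strand, was the lowest of the 4, with 3.15, 1.67 and 2.56 CPM in WT and 2.11, 3.37 and 4.12 CPM in *Mkx*-/- libraries. These values rest on 17 to 52 counts per library and overlapped (log2 fold change 0.37, SE 0.34, adjusted p = 0.561, edgeR's quasi-likelihood test). The log2 fold change of *Tead4* was 0.15 without WT replicate 2, 0.16 without *Mkx*-/- replicate 3, 0.59 without WT replicate 1 and 0.57 without *Mkx*-/- replicate 1. *Tead1* has a second record and an antisense lincRNA in the annotation and *Tead2* touches *Cd37* on the other strand, so their counts are uncertain to that extent.

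The makeup of the TEAD family was compared per length, as CPM per kilobase of the longest annotated transcript. The summed TEAD level was 20.2 ± 3.04 CPM per kilobase in WT and 19.9 ± 1.92 CPM per kilobase in *Mkx*-/- libraries (SD, n = 3 each). *Tead1* made up 65.0%, 45.5% and 58.5% of that sum in WT and 37.4%, 33.5% and 33.8% in *Mkx*-/- libraries. *Tead3* made up 25.3%, 40.8% and 31.7% in WT and 48.2%, 49.8% and 47.4% in *Mkx*-/- libraries. *Tead1* was thus the larger share in every WT library and *Tead3* in every *Mkx*-/- library on this scale. *Tead2* made up 7.14% ± 3.14 in WT and 11.5% ± 0.922 in *Mkx*-/- libraries, and *Tead4* made up 3.93% ± 0.873 and 5.16% ± 1.26 (SD, n = 3 each). With the mean length of a gene's transcripts in place of the longest, the *Tead1* share was 73.3% in WT and 53.5% in *Mkx*-/- libraries and the *Tead3* share 16.9% and 29.1%, so the direction of both shares was the same while *Tead1* stayed the larger share in both genotypes. The ratio of *Tead1* to *Tead3* counts needs no length, and it was 7.43, 3.22 and 5.34 in WT and 2.25, 1.95 and 2.07 in *Mkx*-/- libraries. The groups do not overlap in this ratio, and no test was made of it or of the shares.

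**Figure D3:**
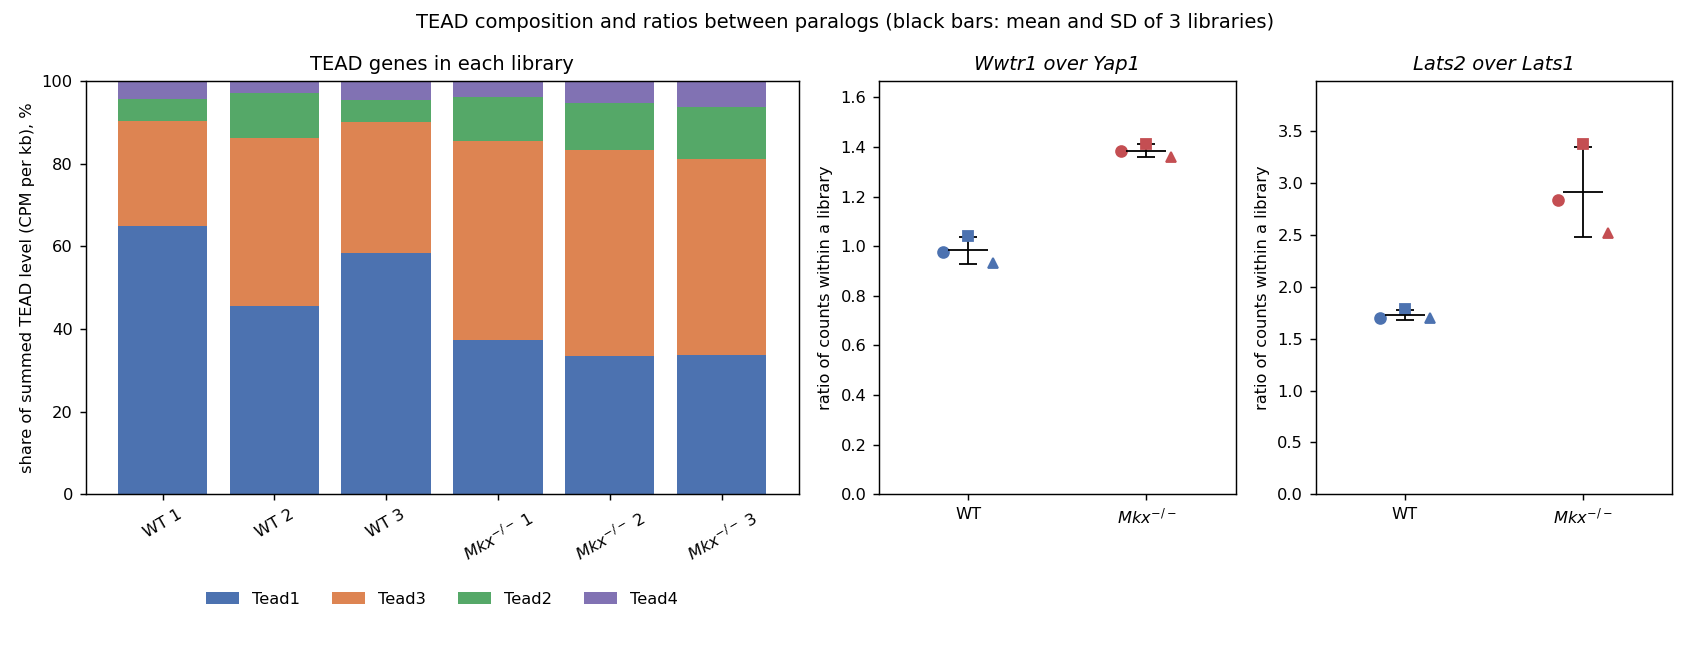
Left, share of each TEAD gene in the summed TEAD level (CPM per kilobase, %) in each library; middle and right, ratio of *Wwtr1* to *Yap1* counts and of *Lats2* to *Lats1* counts within a library, with black bars for mean and SD of 3 libraries. *Tead1* takes 45.5% to 65.0% of the bar in WT and 33.5% to 37.4% in *Mkx*-/- libraries, and both ratios are higher in all 3 *Mkx*-/- libraries.

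Of the LATS kinases, which phosphorylate YAP and TAZ, *Lats1* fell and *Lats2* did not pass the test. *Lats1*, at chr10:7401007-7436256 on the plus strand, had 33.2, 32.4 and 33.9 CPM in WT and 23.3, 20.02 and 22.3 CPM in *Mkx*-/- libraries. Each genotype was tight, and the lowest WT library was above the highest *Mkx*-/- library. The mean of 33.2 ± 0.748 CPM in WT against 21.9 ± 1.66 CPM in *Mkx*-/- (SD, n = 3 each) gave a log2 fold change of -0.60 (SE 0.12, 95% interval -0.87 to -0.34, adjusted p = 0.0252, edgeR's quasi-likelihood test). *Lats1* was the only 1 of the 9 tested pathway genes past an adjusted p of 0.05, where 2.26% of all tested genes were lower by the same rule, and its change was smaller than the log2 fold change of 1 that a call in either direction also required. The log2 fold change lay between -0.67 and -0.54 with any library left out, but the adjusted p was 0.0716 without WT replicate 2, 0.0848 without WT replicate 3 and 0.1004 or 0.0825 when *Mkx*-/- replicate 2 or 3 was left out. Under scaling by library size only, the log2 fold change of *Lats1* was -0.35 (adjusted p = 0.144, edgeR), a setting that moved the median of all genes tested to 0.25. *Lats2*, at chr14:58260914-58377225 on the minus strand, had 56.4, 57.8 and 57.4 CPM in WT and 66.0, 67.6 and 56.1 CPM in *Mkx*-/- libraries. *Mkx*-/- replicate 3 lay below all WT libraries and the other 2 above them (log2 fold change 0.14, SE 0.12, 95% interval -0.13 to 0.41, adjusted p = 0.519, edgeR's quasi-likelihood test). The annotated range of *Lats2* overlaps *Xpo4* on the same strand. The *Lats2* count was 1.70, 1.79 and 1.70 times the *Lats1* count in WT libraries and 2.84, 3.38 and 2.52 times in *Mkx*-/- libraries. *Lats2* was the more counted gene in every library, and the ratio was higher in all 3 *Mkx*-/- libraries.

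*Amotl2* and *Ankrd1* are both known as genes that YAP and TAZ switch on, and their values lay in opposite directions. *Amotl2*, a scaffold of the angiomotin family that binds YAP at junctions, lies at chr9:102619002-102635748 on the plus strand. It had 181, 214 and 202 CPM in WT and 152, 168 and 110 CPM in *Mkx*-/- libraries. All *Mkx*-/- libraries were below all WT libraries, with *Mkx*-/- replicate 3 the lowest. The means were 199 ± 16.4 CPM and 143 ± 29.98 CPM (SD, n = 3 each), with log2 fold change -0.47 (SE 0.17, 95% interval -0.87 to -0.08, adjusted p = 0.148, edgeR's quasi-likelihood test). *Ankrd1*, an ankyrin repeat protein of striated muscle and a common reporter of YAP and TAZ, lies at chr19:36186455-36194334 on the minus strand. It had 3, 0 and 0 counts in WT and 7, 11 and 10 counts in *Mkx*-/- libraries. All 3 *Mkx*-/- libraries were above all WT libraries, at levels of 0.641 to 0.793 CPM against at most 0.236 CPM, and 3 counts in a library correspond to 0.211 to 0.294 CPM. *Ankrd1* had too few counts for the filter of the main fit and was not tested there. Its 28 summed counts against 3 gave a rate ratio of 8.74 (95% exact interval 2.70 to 44.92), an interval that covers counting error only. A looser filter and some fits with 1 library left out let *Ankrd1* in, but mostly through its counts in *Mkx*-/- libraries. Adjusted p-values from those fits are therefore not read here. DESeq2 gave it no adjusted p. All 3 WT counts came from WT replicate 1, so leaving out that library put WT at 0 counts. The skeletal muscle sum was also higher in every *Mkx*-/- library, at 3513, 1693 and 677 CPM in replicates 1, 2 and 3, where *Ankrd1* had 0.641, 0.773 and 0.793 CPM. The part of muscle RNA in the *Ankrd1* counts was not tested.

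As a list, 9 of the 10 pathway genes passed the filter on low counts. At an adjusted p under 0.05 by edgeR, 1 of the 9 was lower and 0 were higher, where 2.26% of all 14550 tested genes were lower and 3.18% higher. None passed when a log2 fold change beyond 1 in either direction was also required, which 1.89% of genes did upwards and 1.33% downwards. At an unadjusted p under 0.05, 3 of the 9 were higher (*Wwtr1*, *Tead2* and *Tead3*) and 3 lower (*Tead1*, *Lats1* and *Amotl2*), where 12.5% of all tested genes were higher and 10.1% lower. By DESeq2 at an adjusted p under 0.05, *Tead3* was higher and *Tead1* and *Lats1* were lower, against 4.87% and 3.58% of all genes with an adjusted p. The groups did not overlap in 2 genes that were higher (*Wwtr1* and *Tead3*) and 3 that were lower (*Tead1*, *Lats1* and *Amotl2*), and the same held for 14.6% and 13.6% of all tested genes. The median log2 fold change of the 9 was 0.14, and that of all tested genes was -0.0037. With so few genes these shares describe the 10 genes and call nothing particular to them.

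Per kilobase of longest transcript, the level in WT tendon was highest for *Amotl2* at 44.9 ± 3.70 CPM per kilobase (SD, n = 3). It was followed by *Wwtr1* (19.3), *Yap1* (17.4), *Tead1* (11.5), *Lats2* (11.02), *Tead3* (6.46), *Lats1* (4.60), *Tead2* (1.41), *Tead4* (0.800) and *Ankrd1* (0.0446 CPM per kilobase). Neighbours whose values overlapped across the WT libraries were *Wwtr1* and *Yap1*, *Yap1* and *Tead1*, *Tead1* and *Lats2*, and *Tead2* and *Tead4*. Within each WT library, though, *Wwtr1* was above *Yap1*, *Yap1* above *Tead1* and *Tead2* above *Tead4*. *Tead1* was above *Lats2* in WT replicate 1 and below it in WT replicates 2 and 3. In *Mkx*-/- tendon the order was *Amotl2* (32.4), *Wwtr1* (24.2), *Yap1* (15.5), *Lats2* (12.2), *Tead3* (9.65), *Tead1* (6.92), *Lats1* (3.03), *Tead2* (2.29), *Tead4* (1.04) and *Ankrd1* (0.417 CPM per kilobase). There the values of *Amotl2* and *Wwtr1* overlapped across libraries, although *Amotl2* was above *Wwtr1* within each library. All other neighbours were apart, so on this scale *Tead1* stood below *Lats2* and *Tead3* in *Mkx*-/- tendon. These levels depend on the length taken: the longest model of *Yap1* has 2 exons and 5282 bases while its 10 transcripts average 2052 bases. By the mean length of each gene's transcripts, WT levels were 99.0 for *Amotl2*, 45.8 for *Tead1*, 44.9 for *Yap1*, 28.5 for *Lats2* and 19.6 CPM per kilobase for *Wwtr1*. In *Mkx*-/- tendon *Tead1* (27.5) was then above *Tead3* (15.0) and below *Lats2* (31.5 CPM per kilobase).

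**Figure D4:**
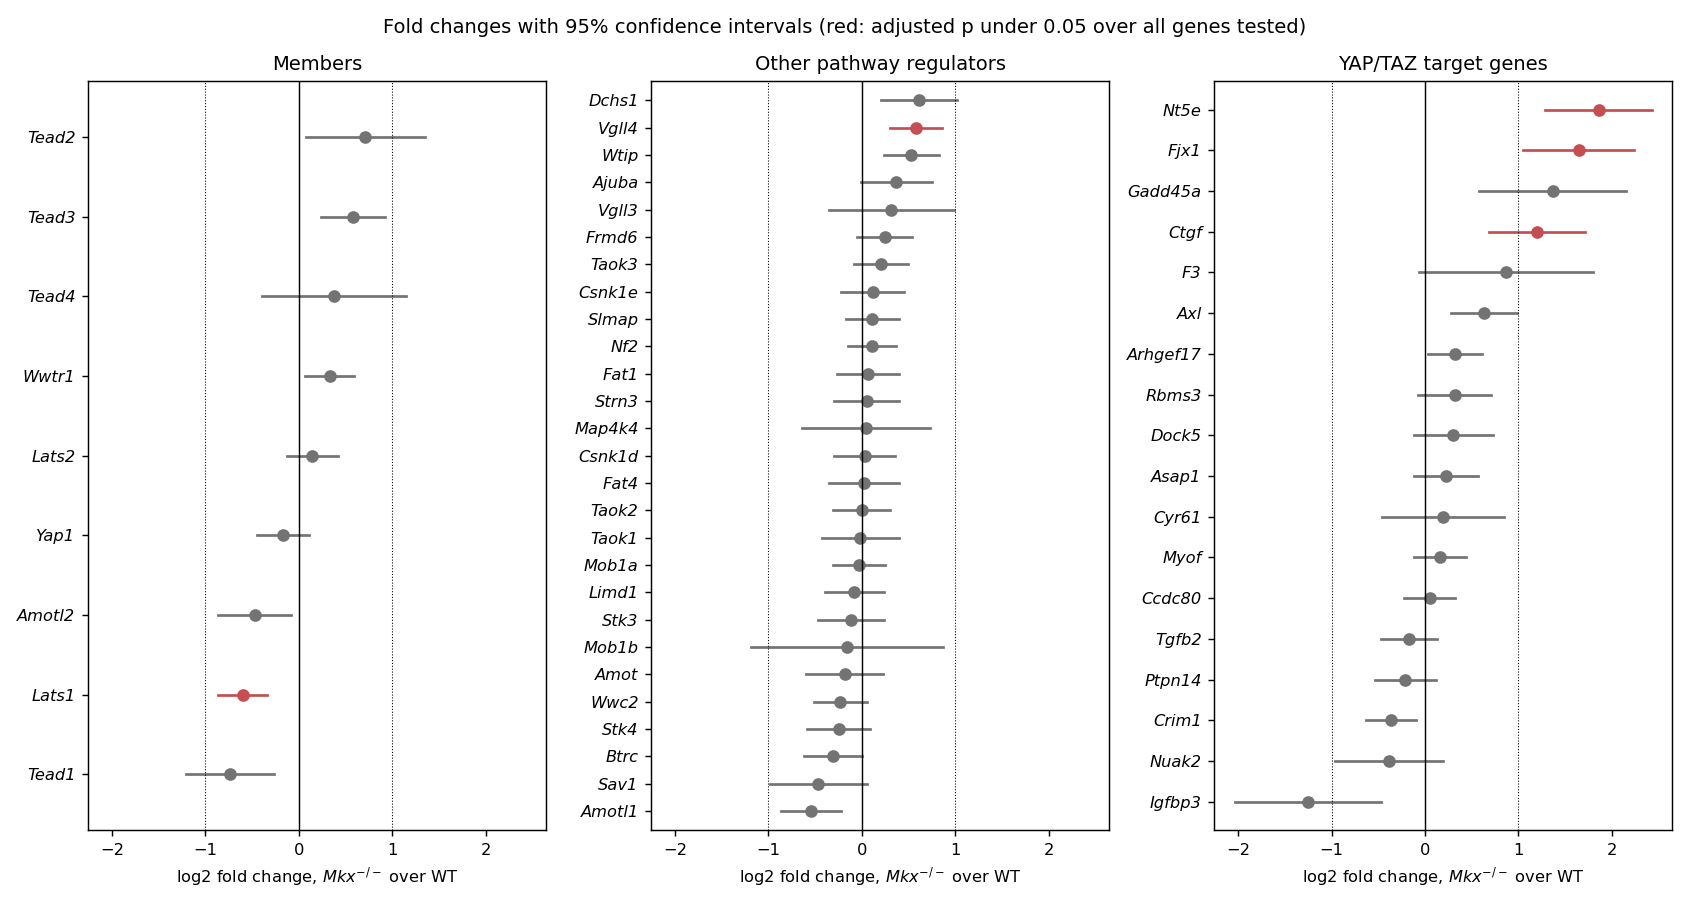
Log2 fold changes of *Mkx*-/- over WT with 95% confidence intervals for the tested pathway genes, the other regulators and the YAP/TAZ target genes, with dotted lines at -1 and 1 and red for an adjusted p under 0.05 over all genes tested by edgeR. *Lats1* is red on the lower side, *Vgll4* among the regulators and *Nt5e*, *Fjx1* and *Ctgf* among the targets are red on the higher side.

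Of the other pathway regulators, 31 genes that act on YAP, TAZ, LATS or TEAD, 30 were in the table and 27 were tested. *Vgll4*, which competes with YAP for TEAD, was the only 1 of the 27 to pass an adjusted p of 0.05, and it rose, a share near the 3.18% of all tested genes that were higher by the same rule. It had 17.2, 18.1 and 17.5 CPM in WT and 24.8, 29.1 and 24.8 CPM in *Mkx*-/- libraries. All *Mkx*-/- libraries were above the tight WT group (log2 fold change 0.58, SE 0.12, adjusted p = 0.0341, edgeR's quasi-likelihood test). The adjusted p stayed under 0.05 without WT replicate 1 (0.0468) and was 0.1023 without WT replicate 2, 0.119 without WT replicate 3, and 0.0743, 0.124 and 0.0786 without *Mkx*-/- replicates 1, 2 and 3. The ratio of *Vgll4* to *Tead1* counts was 0.112, 0.216 and 0.163 in WT and 0.377, 0.414 and 0.352 in *Mkx*-/- libraries. Of all 27 tested regulators 15 were higher (55.6%, against 49.5% of all tested genes) and 12 lower, with a median log2 fold change of 0.029. The 9 tested genes of the kinase cassette upstream of LATS, such as *Stk3* and *Stk4* (MST2 and MST1) and the scaffold *Sav1*, lay between -0.47 and 0.20 and none passed the test. The 3 atypical cadherins lay between 0.02 and 0.61, the 5 junction and scaffold genes between -0.55 and 0.24 and the 3 LIM proteins between -0.08 and 0.53, and none of them passed either. By DESeq2, 3 of the 27 were higher (*Vgll4*, *Wtip* and *Dchs1*) and 1 lower (*Amotl1*), where 4.87% of all genes with an adjusted p were higher and 3.58% lower. *Vgll2*, a TEAD partner of skeletal muscle, had 1, 0 and 1 counts in WT and 20, 21 and 5 counts in *Mkx*-/- libraries and was too low for edgeR's filter, so DESeq2's call of it, which rests on its counts in *Mkx*-/- libraries, is not counted here. Its lowest *Mkx*-/- library was also that with the lowest skeletal muscle sum of the 3, 677 CPM.

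Targets of YAP and TAZ were read from a list of 19 genes in general use. The published list also holds the pathway genes *Amotl2*, *Lats2* and *Ankrd1*, which are given above and not counted here. Of these, *Amotl2* (log2 fold change -0.47) and *Lats2* (0.14) did not pass the test, and *Ankrd1* was not tested. Of the 18 listed targets tested, 3 rose and 15 did not pass the test. By the same rule 3.18% of all tested genes were higher and 2.26% lower. *Nt5e*, which encodes the ecto-nucleotidase CD73, had 136, 87.0 and 82.5 CPM in WT and 422, 414 and 270 CPM in *Mkx*-/- libraries (log2 fold change 1.86, SE 0.25, adjusted p = 0.00576, edgeR's quasi-likelihood test). *Fjx1*, the mouse homologue of a Drosophila planar polarity gene, had 2.68, 3.73 and 5.69 CPM in WT and 12.3, 11.9 and 13.8 CPM in *Mkx*-/- libraries (log2 fold change 1.65, SE 0.26, adjusted p = 0.0121, edgeR). *Ctgf*, a matricellular protein and a standard reporter of the pathway, had 922, 955 and 742 CPM in WT and 2414, 2199 and 1412 CPM in *Mkx*-/- libraries (log2 fold change 1.20, SE 0.22, adjusted p = 0.0226, edgeR). In all 3 genes every *Mkx*-/- library was above every WT library, by the most in *Mkx*-/- replicates 1 and 2 for *Nt5e* and *Ctgf*. *Nt5e* passed with any library left out, *Fjx1* did not without WT replicate 2 (adjusted p = 0.0640), and *Ctgf* did not without WT replicate 2 (0.0826), WT replicate 3 (0.1063), *Mkx*-/- replicate 1 (0.0582) or *Mkx*-/- replicate 2 (0.0744, all by edgeR). *Ctgf* overlaps the lincRNA *Gm15270* on the other strand.

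*Cyr61*, the other standard reporter, had 165, 100.4 and 121 CPM in WT and 128, 213 and 102 CPM in *Mkx*-/- libraries. Its groups overlapped throughout (log2 fold change 0.19, SE 0.28, adjusted p = 0.743, edgeR's quasi-likelihood test). Of all 18 tested targets 13 were higher and 5 lower, with a median log2 fold change of 0.26 against -0.0037 for all tested genes. Groups did not overlap in 6 targets that were higher and in 1 that was lower, *Crim1*, at 33.1 to 36.6 CPM in WT and 25.3 to 29.1 CPM in *Mkx*-/- libraries, where 14.6% and 13.6% of all tested genes were apart. The 6 included, besides those that passed, the receptor kinase *Axl* (0.63, adjusted p = 0.0563) and the stress gene *Gadd45a* (1.37, adjusted p = 0.0592, both by edgeR). The lowest value was that of *Igfbp3*, an IGF-binding protein, at -1.25 (adjusted p = 0.0734 by edgeR and 0.00208 by DESeq2), with groups that overlapped. DESeq2 gave 5 higher and 1 lower (*Igfbp3*), against 4.87% and 3.58% of all genes with an adjusted p.

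**Figure D5:**
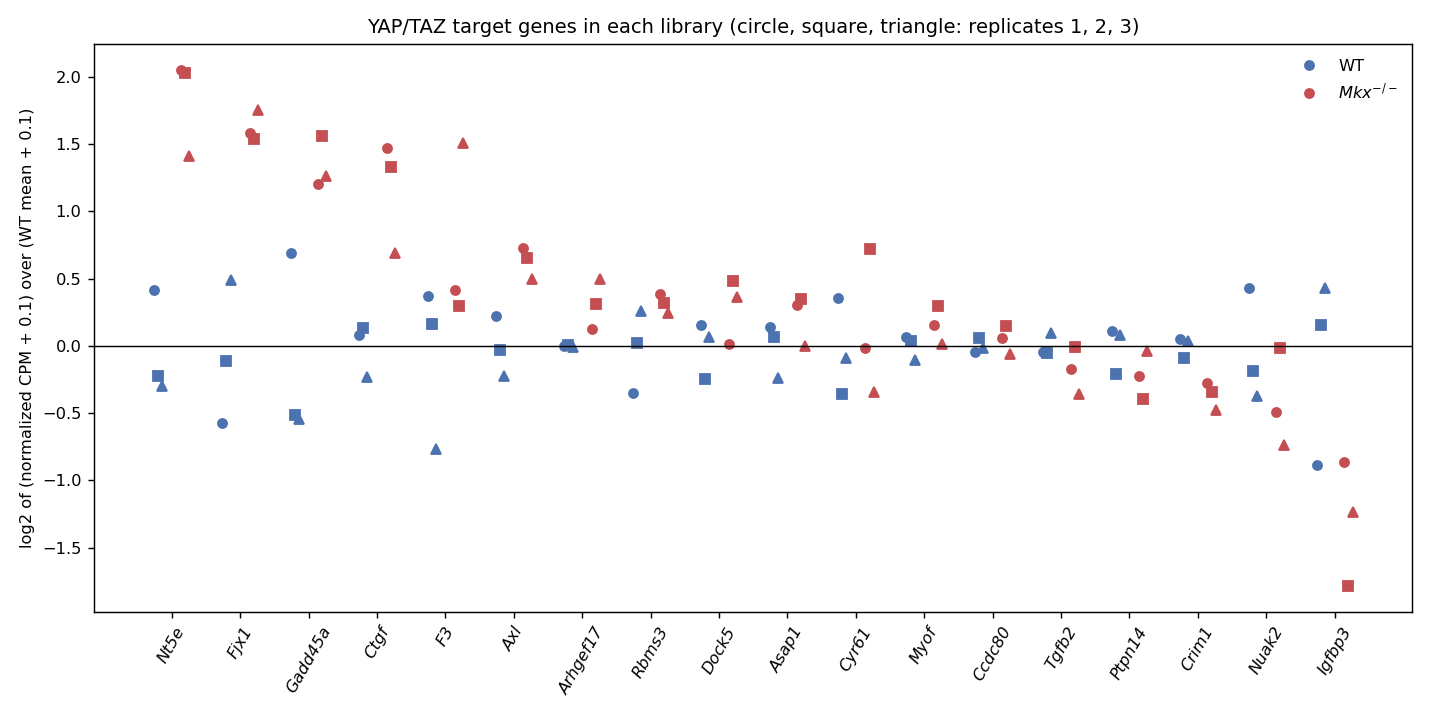
Level of each tested YAP/TAZ target gene in each library, as log2 of normalized CPM plus 0.1 over the WT mean plus 0.1, with blue for WT, red for *Mkx*-/- and circle, square and triangle for replicates 1, 2 and 3. All 3 *Mkx*-/- libraries lie above the WT libraries for *Nt5e*, *Fjx1* and *Ctgf*, whereas the *Cyr61* libraries of both genotypes are mixed.

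Actin and SRF genes are read beside this pathway because actin tension acts on YAP and TAZ and because SRF and its MRTF cofactors share targets with them. Of 14 listed genes 12 were tested and 0 passed an adjusted p of 0.05 by edgeR, with 3 higher and 1 lower at an unadjusted p under 0.05, a rule that 12.5% and 10.1% of all tested genes met. DESeq2 gave 1 (*Vcl*, higher), against 4.87% of all genes with an adjusted p. *Acta2*, the smooth muscle actin, had 66.6, 101.4 and 92.1 CPM in WT and 52.3, 50.2 and 396 CPM in *Mkx*-/- libraries. *Mkx*-/- replicate 3 alone was high, and the other *Mkx*-/- libraries were below all WT libraries. *Tagln* and *Myl9* were also highest in *Mkx*-/- replicate 3, at 178 and 168 CPM against 8.54 to 24.0 CPM in the other 5 libraries, as were the untested genes *Actg2* and *Cnn1* with 591 and 285 counts. That library also held 202 CPM of *Myh11*, the smooth muscle myosin, against 1.97 to 2.75 CPM in the other libraries. Of the 10 pathway genes, *Amotl2* and *Lats2* had their lowest value in that library, and *Tead2*, *Tead4* and *Ankrd1* their highest.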

How the data were processed

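Bulk RNA-seq of tail tendon from 3 WT and 3 *Mkx*-/- libraries was used. The authors extracted RNA with TRIzol, prepared libraries with the Ion Total RNA-Seq Kit v2, sequenced on the Ion Proton system, removed adaptors and low-quality reads, aligned to mm9 with MapSplice and deposited unnormalized counts of reads for each gene symbol. The counting program, its annotation and its handling of strand are not given in the sources used here. All 6 columns were matched to samples by their labels. The table listed 44788 symbols, 19011 of them at 0 throughout. Replicates differed by a chi-square of 8.22 to 40.1 per degree of freedom, more than counting noise alone gives.

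From the deposited counts, edgeR 4.0.16 in R 4.3.3 gave TMM-normalized CPM, a filterByExpr filter (14550 genes tested) and a quasi-likelihood test on genotype alone, with Benjamini-Hochberg adjustment over all genes tested, a threshold of 0.05 and, for calls with a fold, a log2 fold change beyond 1. The biological coefficient of variation was 0.196. Each SE was derived from the fold change and its F statistic. The test was checked on simulated counts, with planted changes larger than those of any tested pathway gene. The check therefore does not cover changes as small as theirs. Levels per kilobase used GENCODE transcripts of mm9, and promoters came from RefSeq. Named genes were the 10 pathway genes, *Mkx* and sex-linked genes as checks, *Ctgf* and *Cyr61*, listed genes past the adjusted p, the 3 nearest profiles of *Yap1* and *Wwtr1*, and markers. *Axl*, *Gadd45a*, *Igfbp3*, *Wtip*, *Dchs1*, *Amotl1*, *Vgll2* and the actin genes were added as names once their values had been seen. The pathway genes and all lists were chosen with earlier results of these data known. The alternatives were DESeq2 1.42.0, RLE, upper-quartile and library-size scaling, a looser filter (at least 1 count in any library) and a stricter filter (at least 10 counts in each), a robust fit, leaving out the skeletal muscle genes, a block for the replicate number, leaving out each library in turn, and, for levels, the mean transcript length.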

Additional observations from a re-analysis of the deposited data

How the results depend on the processing

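Over all genes, 275 were called higher and 193 lower by edgeR, 711 and 154 with scaling by library size only, and 541 and 322 with a filter of 1 count in any library. With library size only, the median log2 fold change of all tested genes was 0.25, *Yap1* turned to 0.077 (-0.17 relative to that median), and 5 regulators, 5 target genes and 2 actin and SRF genes passed an adjusted p of 0.05, against 1, 3 and 0 in the fit reported. The pathway gene that passed there was *Tead3*, which was higher (0.85, 0.60 relative to that median, adjusted p = 0.0207, edgeR). *Lats1* did not pass there (-0.35, adjusted p = 0.144, edgeR). With the filter of 1 count in any library, the pathway genes *Tead1*, *Tead3* and *Lats1* passed, with 5 regulators, 6 targets and 4 actin and SRF genes. *Ankrd1* is not counted there, since its few counts lie mostly in *Mkx*-/- libraries. DESeq2 passed 3 pathway genes, 5 regulators (*Vgll2* among them), 6 targets and 1 actin and SRF gene. A robust fit and removal of the skeletal muscle list each passed 2 regulators. The cause of these differences was not tested. With single libraries left out, the genes called higher numbered 103 to 321 and lower 112 to 248, and 0 to 2 pathway genes, 0 to 1 regulators and 1 to 6 targets passed. The 2 pathway genes, without WT replicate 1, were *Lats1* and *Ankrd1*, and *Ankrd1* had passed the filter through its counts in *Mkx*-/- libraries. *Cyr61* lay between -0.17 (without *Mkx*-/- replicate 2) and 0.41 (without WT replicate 1). Among pathway genes that did not pass, leaving out 1 library moved the log2 fold change of *Yap1* to -0.10 (without WT replicate 1) or -0.27 (without WT replicate 2), that of *Lats2* to 0.092 (without *Mkx*-/- replicate 1), 0.094 (without *Mkx*-/- replicate 2) or 0.22 (without *Mkx*-/- replicate 3), and that of *Amotl2* to -0.31 (without *Mkx*-/- replicate 3). *Lats1* passed in 9 of 15 alternatives, *Vgll4* in 9, *Ctgf* in 11, *Fjx1* in 14 and *Nt5e* in 15.

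Replicate numbers are shared by the genotypes, but they do not pair the libraries throughout: the correlations between the deviations of same-numbered libraries were 0.026, -0.21 and 0.30 for numbers 1, 2 and 3. With the replicate number as a block, 0 pathway genes and 0 regulators passed (*Lats1* adjusted p = 0.0637, *Vgll4* 0.0725, edgeR), which describes the block and not the size of the changes, while *Nt5e*, *Fjx1* and *Ctgf* still passed. At this depth *Ankrd1*, *Tead4* and *Vgll2* have too few counts for small differences to be detectable. Over both alternatives, transcript length and library-size scaling, 29 of 48 levels per kilobase and TEAD shares moved by more than 1 SD.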
